A study of Canis lupus familiaris with 29 samples.

Results

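Potassium channel genes were taken here as the genes whose name in the count table starts with KCN followed by a letter. This found 87 of the 30951 genes in the table, 18239 of which carry a name. Of the 87 members, 73 code for pore-forming subunits and 14 for accessory subunits, and KCNMB4, an accessory subunit of the BK channel, was not found by name. The RNA came from dogs: 19 pheochromocytomas and paragangliomas (PPGLs), tumors of the catecholamine-producing chromaffin cells, and 10 normal adrenal medullas (NAMs). The tumors came from pets, operated on or euthanized, and the NAMs from healthy research dogs. The disease and the origin of the dogs therefore cannot be told apart. The authors divided the tumors into PPGL group 1 (7 samples) and PPGL group 2 (12 samples) by a principal component analysis of these same samples, so a difference between the groups describes that division. The labels name no age, sex, breed or treatment for any sample, and the 2 tumors that the authors excluded were not analysed here.

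Potassium channels let potassium leave the cell, which pulls the membrane toward rest and ends or prevents the action potentials that drive calcium entry and catecholamine release in chromaffin cells. Voltage-gated channels (KCNA to KCNH, KCNQ) open on depolarization, calcium- and sodium-activated channels (KCNM, KCNN, KCNT) on ion entry, inward rectifiers (KCNJ) pass current near rest, and the tandem-pore or K2P channels (KCNK) carry the background leak. Steroid-producing cells of the adrenal cortex, which borders the medulla, rest on such a leak too, and potassium channels set their secretion of aldosterone and cortisol.

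Reads counted on genes totaled 19258054 to 35918182 per NAM, 18493540 to 31919833 per tumor of PPGL group 1 and 18208718 to 24569667 per tumor of PPGL group 2. Values are given as CPM, the count as a share of the library's total on a common scale, after TMM scaling, and 3 counts, taken as the smallest signal these depths can show, correspond to 0.0779 to 0.164 CPM in a NAM and to between 0.0895 and 0.175 CPM in a tumor. This covers counting error only. The low-count filter kept 63 of the 87 members for PPGLs against NAMs, 53 pore-forming and 10 accessory, and 61 for PPGL group 1 against group 2. Among the 24 members not tested between PPGLs and NAMs, KCNJ13 and KCNV2 had no read in any of the 29 samples, and KCNA7 and KCNE5 had more than 3 counts in no sample. Exons of KCNH2 share 163 bases with NOS3 on the opposite strand, those of KCNG3 share 344 with MTA3 and those of KCNIP3 share 86 with GPAT2, and the strand setting of the counting was not found in the sources used here.

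Several libraries stood apart. PPGL group 1 replicate 7 had the lowest summed CPM of the 12 chromaffin cell markers found, 8308, the highest of the 7 proliferation markers found, 1242, and the highest values of KCNH1, KCNH7, KCNH8 and KCNS1 among the tumors. PPGL group 1 replicate 2 held the highest values of KCNH5, KCNJ5 and KCNIP4. PPGL group 2 replicate 11 had the highest summed CPM of fibroblast markers, 25288, of pericyte and smooth muscle markers, 5227, and of leukocyte markers, 801, and it held the highest KCNMB1.

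Across the 63 tested members, 19 were called higher in PPGLs than in NAMs at an FDR-adjusted p below 0.05, which is 30.2% of them beside 22.3% of all 14766 genes tested. A further 11 were called lower, 17.5% beside 15.2%, and 33 were not called. The median log2 fold change (log2 FC) was 0.33 over the tested members and 0.13 over all genes tested. KCNQ5 and KCNE3 were called with a log2 FC over 3 (2.07% of all genes tested were), and KCNN2 with a log2 FC under -3 (0.792%). KCNE3 passed below 3 without NAM replicate 2, NAM replicate 3, PPGL group 1 replicate 5 or PPGL group 2 replicate 9 (lowest 2.81), and KCNN2 rose above -3 without NAM replicate 8, PPGL group 1 replicate 1 or PPGL group 1 replicate 2 (highest -2.92). With all 3 groups in the fit, KCNQ5 was at 2.97, and with the cortical score, described below, KCNE3 was at 2.49 and KCNN2 at -1.71. No tested member had every PPGL above every NAM (0.223% of all genes tested did) or every PPGL below every NAM (0.481%), so each of these differences is one of overlapping groups.

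Counts by subfamily are small, and no test compared the subfamilies. All 8 members of the KCNH family (EAG, ERG and ELK channels) were tested, and 4 were higher and none lower, with a median log2 FC of 0.62, but KCNH1 and KCNH5 were called lower without PPGL group 1 replicate 2 and by the Mann-Whitney U-test. Among the 7 tested calcium- and sodium-activated pores, 4 were higher and 2 lower, and both tested BK accessory subunits (KCNMB) were higher. Of the 10 tested KCNK members, 4 were higher and 2 lower. The 5 tested KCNA members gave 2 lower, the 3 tested KCNC members 1 higher and 1 lower, and the 5 tested members of the silent KCNF, KCNG and KCNS families 2 lower. Only 7 of the 15 inward rectifier genes (KCNJ) were expressed enough to be tested, and 1 of them was higher. No KCND member was called, and the 8 tested accessory subunits of voltage-gated channels (KCNAB, KCNE, KCNIP) gave 1 higher and 1 lower.

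**Figure D1:**
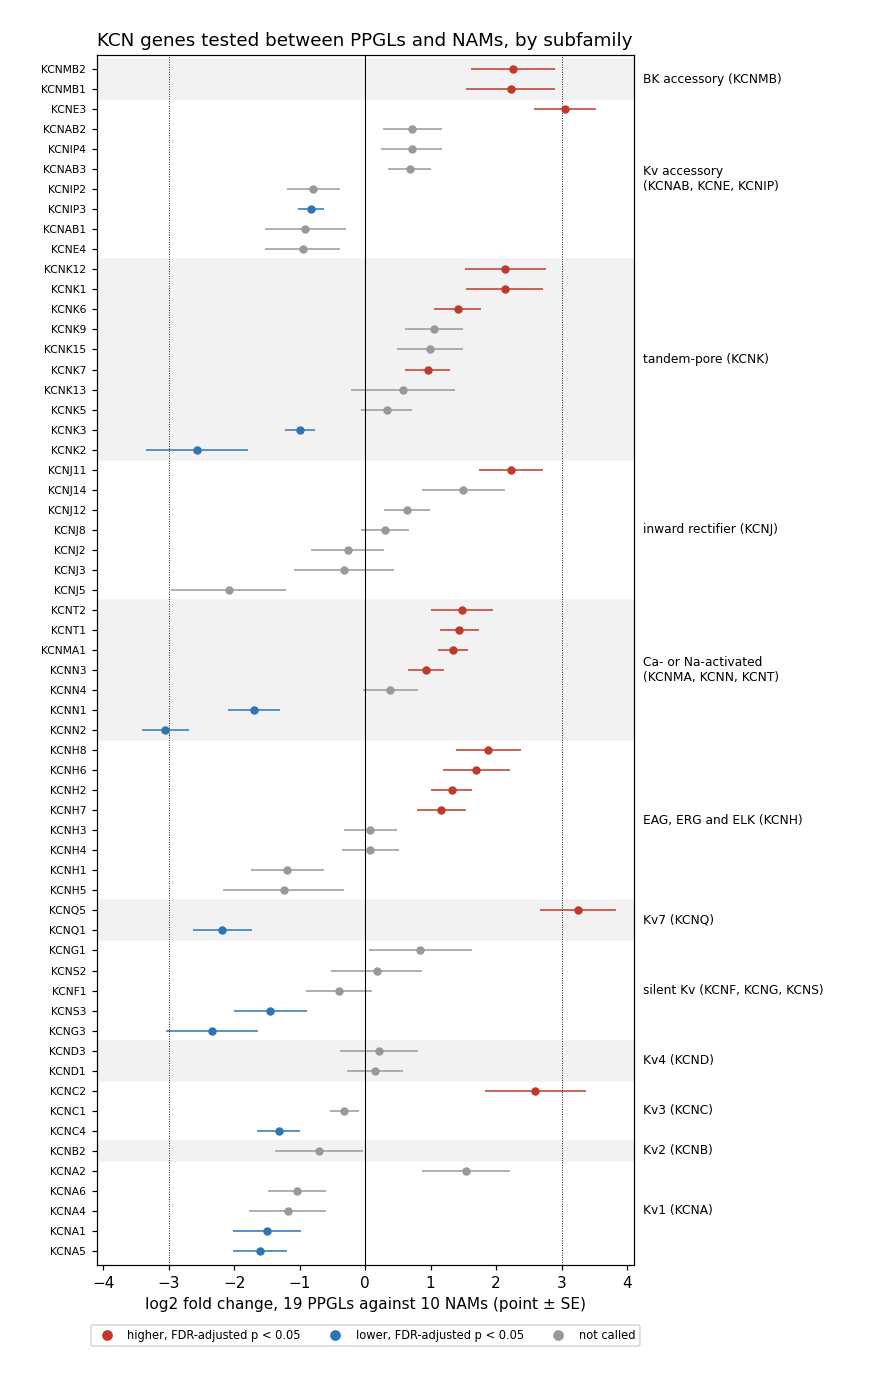
Log2 fold change of 60 of the 63 tested potassium channel genes, 19 PPGLs against 10 NAMs, a point per gene with bars of ± 1 SE from the quasi-likelihood fit, grouped by subfamily, where red is called higher, blue called lower, grey not called, and dotted lines mark 3 and -3. KCNQ5 (3.25) and KCNE3 (3.05) lie past the right line, and KCNN2 (-3.05) past the left.

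Markers of the adrenal cortex moved with several of these results. Of 14 cortical markers listed, 11 were found by name (CYP11B1, CYP11B2 and SULT2A1 were not), none of the 11 was at 0, and 10 were called lower in PPGLs than in NAMs. Their summed level was 14590.2 to 69469 (median 38071) CPM in the NAMs, 95.0 to 1174 (median 279.7) in PPGL group 1 and 263 to 34973 (median 3722) in PPGL group 2. CYP17A1, the steroid hydroxylase of the cortisol pathway, was the most abundant, with means of 11981, 22.3 and 2428 CPM. The summed level of the 12 chromaffin markers found of 13 (CHGA was not found by name, CHGB was the most abundant) was 18169.6 to 97989.8 (median 32617) CPM in the NAMs, 8308 to 119421 (median 36102) in PPGL group 1 and 21565 to 106058 (median 50689.9) in PPGL group 2, with no marker at 0, and 3 of them were called higher and 1 lower in PPGLs than in NAMs. In bulk tissue, fewer cells of a type and less RNA per cell cannot be told apart, and the part of cortical tissue in the results on channels was not tested.

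Between genes, levels were compared per exon length, as CPM per kilobase (RPKM, group means). In NAMs the 3 highest members were KCNK2 at 75.3, KCNK3 at 71.5 and KCNN2 at 45.6 RPKM, that is, leak channels and an SK channel. In PPGL group 1 they were KCNIP4, a calcium-binding subunit of KCND channels, at 37.0, KCNK3 at 34.0 and KCNE3, a small accessory subunit of KCNQ channels, at 33.5. In PPGL group 2 they were KCNMB2 at 92.6, KCNH2 at 47.1 and KCNK3 at 36.8 RPKM. The place of KCNIP4 rests on 1 tumor: without PPGL group 1 replicate 2 (171 CPM) its mean was 23.9 RPKM, below KCNE3 (36.6), KCNH2 (34.8) and KCNK3 (33.1). Without PPGL group 1 replicate 5, KCNE3 fell to 22.9 RPKM, below KCNH2 (30.2). KCNK3 was thus the only member among the 3 highest in every group, also when any 1 library was left out. The annotated exon of KCNE3 is 300 bases long, and its RPKM depends on that length.

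Small-conductance calcium-activated (SK) channels open on the calcium that enters with each action potential and delay the next, a brake on firing described in chromaffin cells. KCNN2 (chromosome 11, 4154746 to 4423078 in CanFam3.1), an SK pore subunit, was present at 42.8 to 269 CPM (median 153) in the NAMs, 4.42 to 16.8 (median 8.52) in PPGL group 1 and 7.29 to 68.1 (median 15.1) in PPGL group 2. Thus 17 of 19 PPGLs lay below every NAM, and the remaining pair, PPGL group 2 replicates 10 (68.1 CPM) and 2 (57.1 CPM), lay within the range of the NAMs. The difference in KCNN2 had the smallest adjusted p among the members (log2 FC -3.05 ± 0.36, FDR-adjusted p = 5.30e-07, where ± is the SE). KCNN1, a related SK subunit, was present at 21.9 to 112 CPM (median 43.2) in the NAMs, 0.800 to 20.7 (median 10.8) in PPGL group 1 and 3.32 to 63.8 (median 16.8) in PPGL group 2. The same pair of tumors overlapped with the NAMs and the other 17 lay below them (log2 FC -1.70 ± 0.40, FDR-adjusted p = 0.00136). KCNN3, the remaining SK subunit, went the other way, with 8.91 to 34.6 CPM (median 15.2) in the NAMs, 13.7 to 44.3 (median 31.2) in PPGL group 1 and 5.84 to 57.2 (median 32.9) in PPGL group 2. Here 9 PPGLs lay above every NAM, 1 lay below, and the rest overlapped (log2 FC 0.93 ± 0.28, FDR-adjusted p = 0.0100).

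BK channels need depolarization and calcium together and repolarize chromaffin cells quickly. The pore gene KCNMA1 was at 11.6 to 34.4 CPM (median 20.7) in the NAMs, 30.9 to 95.2 (median 39.2) in PPGL group 1 and 18.5 to 110.1 (median 62.2) in PPGL group 2. In 16 of 19 PPGLs it exceeded every NAM, in tumors of both groups (log2 FC 1.34 ± 0.23, FDR-adjusted p = 6.28e-05). KCNMB2 codes for the subunit that makes BK currents of chromaffin cells inactivate, and its level was 8.15 to 36.7 CPM (median 23.3) in the NAMs, 0.329 to 94.0 (median 20.4) in PPGL group 1 and 31.0 to 524 (median 131) in PPGL group 2. It was above every NAM in 12 tumors, most of them of group 2, and below every NAM in 2 of group 1 (log2 FC 2.26 ± 0.64, FDR-adjusted p = 0.00611). KCNMB1, the BK subunit of smooth muscle, was at 0.678 to 2.09 CPM (median 1.69) in the NAMs, 0.992 to 3.69 (median 2.48) in PPGL group 1 and 0.712 to 77.6 (median 2.57) in PPGL group 2, and 12 PPGLs exceeded every NAM (log2 FC 2.22 ± 0.68, FDR-adjusted p = 0.0105). A single tumor set the top of that range, PPGL group 2 replicate 11, which also had the highest sum of pericyte and smooth muscle markers. Without it the log2 FC of KCNMB1 was 1.04, with an adjusted p of 0.0196. The 8 pericyte and smooth muscle markers (RGS5 the most abundant, none at 0) summed to 389.8 to 1621 (median 904) CPM in the NAMs, 267 to 4009 (median 1782) in PPGL group 1 and 793 to 5227 (median 1666) in PPGL group 2, with 4 called higher and 0 lower in PPGLs, and their part in the KCNMB1 result was not tested. KCNMB3 was not tested and reached 0.191 CPM at most.

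Sodium-activated channels respond to the sodium that enters with repeated firing. KCNT2 was at 5.40 to 15.2 CPM (median 9.65) in the NAMs, 0.565 to 46.2 (median 21.0) in PPGL group 1 and 5.68 to 107 (median 17.9) in PPGL group 2, with 11 PPGLs above and 2 below every NAM (log2 FC 1.48 ± 0.47, FDR-adjusted p = 0.0139). Its relative KCNT1, named after its values were seen, was at 19.4 to 68.7 CPM (median 33.4) in the NAMs, 36.2 to 248 (median 87.7) in PPGL group 1 and 43.3 to 215 (median 74.5) in PPGL group 2. No PPGL had less KCNT1 than the lowest NAM, and 12 had more than the highest (log2 FC 1.44 ± 0.29, FDR-adjusted p = 0.000389). KCNU1, a channel of sperm cells, was not tested and reached 0.800 CPM.

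**Figure D2:**
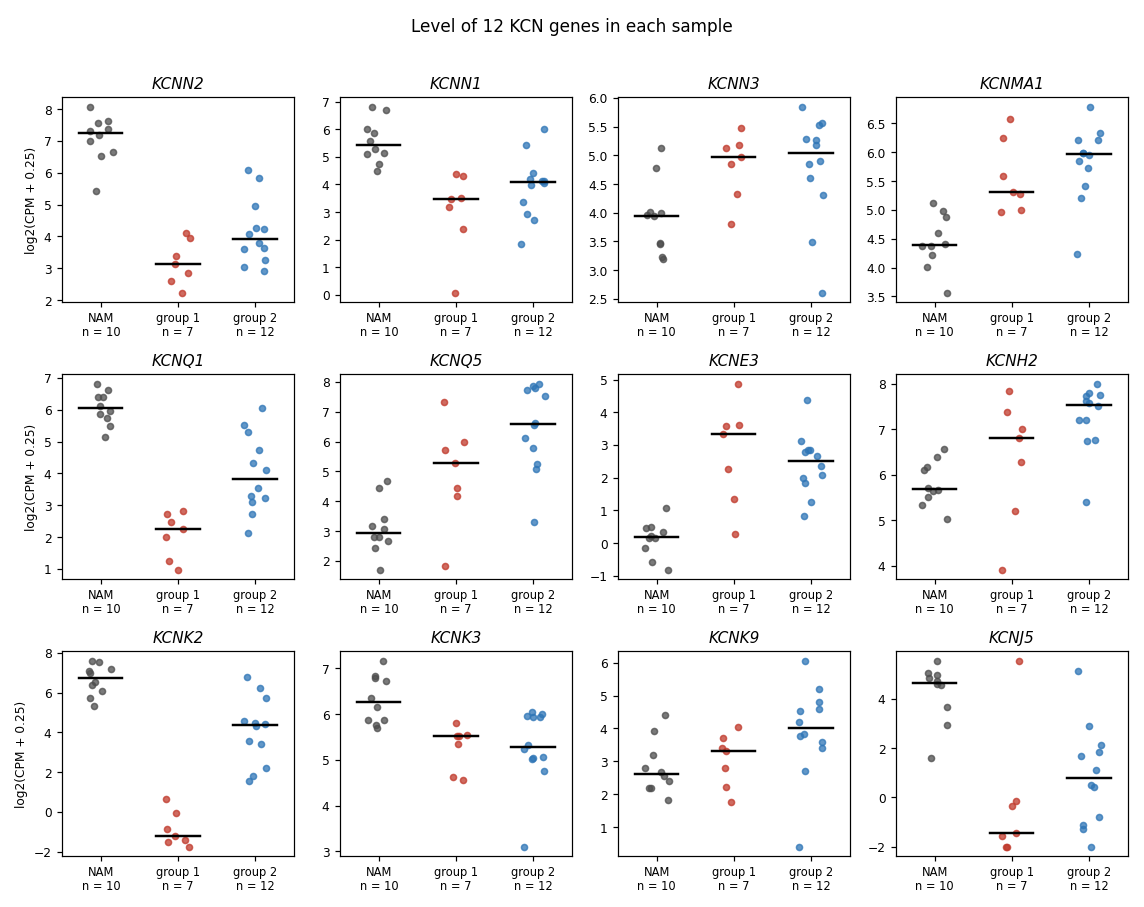
Expression of 12 potassium channel genes in each sample, as log2 of TMM-scaled CPM plus 0.25 on the vertical axis, with a point per sample for 10 NAMs, 7 PPGLs of group 1 and 12 of group 2, and a bar at each group's median. KCNN2, KCNN1 and KCNQ1 are lower in most PPGLs, with 2 or 3 tumors of group 2 reaching the NAMs, while KCNMA1 exceeds every NAM in 16 PPGLs and KCNQ5 in 15.

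KCNQ channels open slowly near the resting potential, and some of them, KCNQ3 and KCNQ5 included, carry the M current, which acetylcholine shuts off in nerve and chromaffin cells. KCNQ5 (chromosome 12, 34872581 to 35362349 in CanFam3.1) was at 3.00 to 25.6 CPM (median 7.41) in the NAMs, 3.29 to 161 (median 38.6) in PPGL group 1 and 9.64 to 245 (median 96.4) in PPGL group 2. It exceeded every NAM in 15 of 19 PPGLs and was the member with the largest increase in the fit (log2 FC 3.25 ± 0.58, FDR-adjusted p = 9.03e-05). KCNQ3, often paired with KCNQ5, was not tested and had more than 3 counts in 10 of 29 samples, reaching 1.14 CPM in PPGL group 1 replicate 7.

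KCNQ1 serves the heart and epithelia, and its behavior depends on the small KCNE subunit it is paired with. Its level was 35.0 to 113 CPM (median 65.8) in the NAMs, 1.71 to 6.73 (median 4.47) in PPGL group 1 and 4.13 to 66.5 (median 14.2) in PPGL group 2. All 7 tumors of group 1 lay below every NAM, and the tumors that overlapped with the NAMs were PPGL group 2 replicates 10, 2 and 1 (66.5, 45.9 and 39.4 CPM). The adjusted p was 0.000389 and the log2 FC -2.18 ± 0.45. KCNE3 (chromosome 21, 23871648 to 23871947 in CanFam3.1), which holds KCNQ1 open in epithelia, was at 0.319 to 1.86 CPM (median 0.891) in the NAMs, 0.973 to 29.04 (median 9.85) in PPGL group 1 and 1.52 to 20.3 (median 5.49) in PPGL group 2. In 17 of 19 PPGLs it exceeded every NAM, and no PPGL fell below the lowest NAM (log2 FC 3.05 ± 0.48, FDR-adjusted p = 2.02e-05). KCNE3 and KCNQ1 thus moved in opposite directions between the tissues. KCNE2 and KCNE5 were not tested, with at most 1.00 and 0.0671 CPM, and KCNE4 was tested and not called.

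K2P channels, with tandem pore domains in each subunit, stay open at rest and answer to acid, stretch, lipids and G proteins. KCNK2 (chromosome 7, 12894149 to 13090110 in CanFam3.1), the stretch- and lipid-gated channel that sets the resting potential of cortisol-producing cells, was at 39.7 to 194 CPM (median 108) in the NAMs, 0.0471 to 1.34 (median 0.175) in PPGL group 1 and 2.70 to 109.9 (median 20.3) in PPGL group 2. It was below every NAM in 16 of 19 PPGLs, and the tumors within the NAM range were again PPGL group 2 replicates 10, 2 and 1 (109.9, 75.8 and 52.1 CPM). Its log2 FC was -2.57 ± 0.78 and its adjusted p 0.0105. KCNK3, an acid-sensitive leak channel of chromaffin and cortical cells, was at 51.5 to 143 CPM (median 76.4) in the NAMs, 23.5 to 55.3 (median 45.9) in PPGL group 1 and 8.33 to 65.9 (median 38.5) in PPGL group 2. Although lower in 13 PPGLs than in every NAM (log2 FC -0.998 ± 0.22, FDR-adjusted p = 0.000948), it stayed well above the detection limit in every tumor. KCNK9, its closest relative, was at 3.31 to 21.0 CPM (median 5.91) in the NAMs, 3.19 to 16.4 (median 9.65) in PPGL group 1 and 1.08 to 66.4 (median 16.1) in PPGL group 2, and 5 PPGLs exceeded every NAM. It was not called (log2 FC 1.05 ± 0.44, FDR-adjusted p = 0.0624), but was when NAM replicate 3, NAM replicate 4, PPGL group 1 replicate 3, PPGL group 1 replicate 7 or PPGL group 2 replicate 9 was left out (lowest adjusted p 0.0226), and also with library size scaling and with the DESeq2 Wald test. KCNK5, a further pH-sensitive channel, was at 0.420 to 1.56 CPM (median 0.536) in the NAMs, 0.350 to 3.04 (median 1.38) in PPGL group 1 and 0.0949 to 1.74 (median 0.527) in PPGL group 2 and was not called (log2 FC 0.33 ± 0.39, FDR-adjusted p = 0.539).

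Other tandem-pore members were higher at low levels. KCNK1, which passes little current in most cells, was at 0.343 to 1.26 CPM (median 0.663) in the NAMs, 0.604 to 10.2 (median 4.14) in PPGL group 1 and 0 to 7.10 (median 1.53) in PPGL group 2, with 12 PPGLs above every NAM and 2 below (log2 FC 2.13 ± 0.59, FDR-adjusted p = 0.00560). KCNK12, whose protein is largely held inside the cell, was at 0.382 to 1.25 CPM (median 0.800) in the NAMs, 0.177 to 6.22 (median 0.268) in PPGL group 1 and 0.505 to 12.51 (median 3.54) in PPGL group 2. Its increase came with overlap, since 11 PPGLs lay above and 4 below every NAM (log2 FC 2.14 ± 0.62, FDR-adjusted p = 0.00759). Of the 11 above, 9 were of group 2, and the 4 below were all of group 1. KCNK12 was not called by the Mann-Whitney U-test. KCNK6 and KCNK7, relatives of KCNK1 named after their values were seen, had log2 FCs of 1.41 ± 0.36 (adjusted p 0.00265) and 0.95 ± 0.35 (adjusted p 0.0308), with 12 and 11 PPGLs above every NAM. The call of KCNK7 was lost without NAM replicate 1, 8, 9 or 10 (log2 FC 0.83, 0.93, 0.92 and 0.90) and without the low-count filter, and KCNK7 did not pass a filter of at least 1 CPM. Of the 4 members not tested, KCNK4 reached 6.41 CPM, KCNK10 5.00, KCNK16 2.32 and KCNK18 0.194, the highest tumor of KCNK4 and KCNK10 being PPGL group 1 replicate 7.

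The KCNH family holds the ERG channels (KCNH2, KCNH6, KCNH7), the EAG channels (KCNH1, KCNH5) and the ELK channels (KCNH3, KCNH4, KCNH8). ERG channels close slowly and damp repeated firing. KCNH2, also the ERG channel of cardiac repolarization, was at 32.2 to 94.6 CPM (median 51.0) in the NAMs, 14.8 to 228 (median 113) in PPGL group 1 and 42.2 to 256 (median 186) in PPGL group 2. It exceeded every NAM in 15 of 19 PPGLs and fell below every NAM in 1 (log2 FC 1.32 ± 0.31, FDR-adjusted p = 0.00164). KCNH6 was at 1.33 to 8.24 CPM (median 3.55) in the NAMs, 0.875 to 22.2 (median 6.52) in PPGL group 1 and 0.621 to 38.2 (median 13.8) in PPGL group 2, above every NAM in 11 PPGLs and below in 2 (log2 FC 1.70 ± 0.51, FDR-adjusted p = 0.00942). KCNH7, named after its values were seen, was at 8.62 to 25.4 CPM (median 16.9) in the NAMs, 18.6 to 119.7 (median 49.5) in PPGL group 1 and 10.2 to 107 (median 22.5) in PPGL group 2, above every NAM in 8 PPGLs (log2 FC 1.17 ± 0.37, FDR-adjusted p = 0.0139), and was not called by the Mann-Whitney U-test. All 3 ERG genes were therefore higher, each with overlapping groups. The ELK gene KCNH8 was at 0.648 to 3.17 CPM (median 1.93) in the NAMs, 2.45 to 33.4 (median 9.51) in PPGL group 1 and 0.318 to 8.42 (median 4.09) in PPGL group 2, and 13 PPGLs lay above every NAM and 1 below (log2 FC 1.88 ± 0.50, FDR-adjusted p = 0.00408).

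The EAG genes went toward lower values in most tumors and changed their call with single libraries. KCNH1, studied in many tumors for its link to cell division, was at 8.20 to 32.3 CPM (median 16.7) in the NAMs, 1.09 to 68.1 (median 6.18) in PPGL group 1 and 1.49 to 5.32 (median 3.04) in PPGL group 2. It was below every NAM in 16 of 19 PPGLs and above in 1, PPGL group 1 replicate 7 (68.1 CPM), and was not called (log2 FC -1.19 ± 0.56, FDR-adjusted p = 0.0918). Without that tumor KCNH1 was called, with a log2 FC of -1.91 (adjusted p 0.000908), and without PPGL group 1 replicate 2 with -1.43 (0.0359). KCNH5 was at 3.62 to 17.9 CPM (median 10.5) in the NAMs, 0 to 65.0 (median 1.81) in PPGL group 1 and 0 to 2.54 (median 0.280) in PPGL group 2, below every NAM in 18 PPGLs and above in PPGL group 1 replicate 2 (65.0 CPM). With all libraries it was not called (log2 FC -1.24 ± 0.93, FDR-adjusted p = 0.301), and without that tumor its log2 FC was -3.42 (adjusted p 0.000201). KCNH5 was called lower by the DESeq2 Wald test as well, KCNH1 with all 3 groups in the fit, and KCNH1 and KCNH5 by the Mann-Whitney U-test.

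KCNA channels set the threshold for firing. KCNA5, a delayed rectifier, was at 30.6 to 115 CPM (median 53.6) in the NAMs, 2.18 to 38.6 (median 12.3) in PPGL group 1 and 2.21 to 100.3 (median 18.1) in PPGL group 2, with 15 of 19 PPGLs below every NAM (log2 FC -1.61 ± 0.42, FDR-adjusted p = 0.00342). KCNA1 was far less abundant, at 0.710 to 1.49 CPM (median 1.09) in the NAMs, 0 to 0.477 (median 0.141) in PPGL group 1 and 0 to 2.44 (median 0.382) in PPGL group 2. It lay below every NAM in 18 PPGLs and above in 1, PPGL group 2 replicate 11, and several tumors were at or under the detection limit (log2 FC -1.50 ± 0.52, FDR-adjusted p = 0.0243). KCNA1, KCNA5 and KCNA6 are neighbors on chromosome 27 (starts at 39933825, 39756363 and 40044334 in CanFam3.1), and the log2 FC of KCNA6, named after its values were seen, was -1.04 ± 0.44 (adjusted p 0.0595), not called with all libraries, but called lower without PPGL group 2 replicate 3, 4 or 6, by the DESeq2 Wald test and by the Mann-Whitney U-test. KCNA2 and KCNA4 were not called in the edgeR fit. KCNA2 was called higher by the DESeq2 Wald test, with library size scaling and without PPGL group 1 replicate 2 or PPGL group 2 replicate 11, and KCNA4 lower by the Mann-Whitney U-test and with all 3 groups in the fit. KCNA7 and KCNA10 were not tested, with at most 0.0564 and 0.119 CPM. KCNA1 did not pass a filter of at least 1 CPM.

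KCNC channels open only at strong depolarization and close fast, which keeps action potentials short. KCNC4 was at 39.5 to 105 CPM (median 46.7) in the NAMs, 3.81 to 21.5 (median 10.6) in PPGL group 1 and 10.8 to 61.2 (median 26.9) in PPGL group 2, with 16 tumors of 19 under the lowest NAM (log2 FC -1.32 ± 0.33, FDR-adjusted p = 0.00239). KCNC2 was at 0.306 to 1.91 CPM (median 1.03) in the NAMs, 0.336 to 4.57 (median 0.523) in PPGL group 1 and 0.0531 to 28.6 (median 3.82) in PPGL group 2, above every NAM in 11 PPGLs and below in 1 (log2 FC 2.597 ± 0.77, FDR-adjusted p = 0.00883). The higher tumors of KCNC2 were mostly of group 2, and KCNC2 was not called by the Mann-Whitney U-test. KCNC1 was not called, nor was KCNB2, a delayed rectifier. KCND channels give the brief A-type current, and neither KCND1, at 1.69 to 6.69 CPM (median 3.37) in the NAMs, 4.84 to 10.6 (median 6.77) in PPGL group 1 and 0.337 to 7.57 (median 2.05) in PPGL group 2 (log2 FC 0.15 ± 0.43, FDR-adjusted p = 0.811), nor KCND3 was called, with overlapping groups.

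Silent subunits form no channel alone and modify those of KCNB. KCNS3 was at 9.33 to 52.2 CPM (median 20.0) in the NAMs, 0.503 to 30.3 (median 10.3) in PPGL group 1 and 0.690 to 24.3 (median 2.72) in PPGL group 2, with 14 tumors of 19 under the lowest NAM (log2 FC -1.45 ± 0.56, FDR-adjusted p = 0.0409). That call was lost in 17 of 29 fits that left out 1 library, with the highest adjusted p, 0.101, and a log2 FC of -1.20 without NAM replicate 4, and it was kept only without NAM replicates 1, 2, 7 or 8, PPGL group 1 replicates 1, 2, 3, 5 or 7, or PPGL group 2 replicates 2, 7 or 11. It was also lost with library size scaling. KCNG3 was at 0.610 to 5.24 CPM (median 1.78) in the NAMs, 0 to 0.0438 (median 0) in PPGL group 1 and 0 to 1.89 (median 0.389) in PPGL group 2. In 6 tumors of group 1 it had no read, and 14 PPGLs lay below every NAM (log2 FC -2.34 ± 0.70, FDR-adjusted p = 0.00929). KCNF1 was at 0.929 to 6.74 CPM (median 2.48) in the NAMs, 0.175 to 1.64 (median 0.298) in PPGL group 1 and 0.878 to 6.83 (median 2.95) in PPGL group 2 and was not called between PPGLs and NAMs (log2 FC -0.40 ± 0.51, FDR-adjusted p = 0.563), except lower with all 3 groups in the fit. KCNG1 and KCNS2 were tested and not called. Among the 4 not tested, KCNV2 had no read, KCNG4 and KCNV1 reached 1.08 and 6.47 CPM, and KCNS1, named after its values were seen, was at 93.5 CPM in PPGL group 1 replicate 7 and at most 0.512 CPM in any NAM.

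Accessory subunits of voltage-gated channels bind the pore subunits, KCNAB and KCNIP on the inner side and KCNE within the membrane. KCNIP3, a calcium sensor that serves KCND channels and also represses transcription, was at 22.3 to 45.1 CPM (median 30.3) in the NAMs, 10.8 to 35.1 (median 16.4) in PPGL group 1 and 4.97 to 23.4 (median 17.1) in PPGL group 2. The value fell under that of the lowest NAM in 14 tumors of 19 (log2 FC -0.83 ± 0.20, FDR-adjusted p = 0.00178). KCNIP4 was at 8.25 to 35.4 CPM (median 25.3) in the NAMs, 8.80 to 171 (median 38.6) in PPGL group 1 and 0.282 to 68.5 (median 30.2) in PPGL group 2 and was not called (log2 FC 0.71 ± 0.46, FDR-adjusted p = 0.235), with its highest value in PPGL group 1 replicate 2. Without that tumor the log2 FC of KCNIP4 was 0.41 and its adjusted p 0.453. KCNAB2, a subunit of KCNA channels, was at 4.94 to 17.995 CPM (median 8.07) in the NAMs, 8.94 to 61.6 (median 23.2) in PPGL group 1 and 1.97 to 19.1 (median 5.74) in PPGL group 2. Its tumors spread to both sides of the NAMs, 5 above and 5 below all of them (log2 FC 0.72 ± 0.46, FDR-adjusted p = 0.218). KCNAB1, KCNAB3 and KCNIP2 were not called in the edgeR fit, but KCNAB1 and KCNIP2 were called lower by the Mann-Whitney U-test, and KCNIP2 without PPGL group 1 replicate 2. KCNIP1, which reached 0.546 CPM, was not tested.

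Inward rectifiers include the ATP-gated channels, which couple metabolism to excitability, and channels opened by G proteins. KCNJ11, the pore of the ATP-gated channel of endocrine cells, was at 0 to 0.491 CPM (median 0.220) in the NAMs, 0.329 to 1.63 (median 0.940) in PPGL group 1 and 0.421 to 3.01 (median 0.886) in PPGL group 2. It exceeded every NAM in 17 of 19 PPGLs at low levels, several NAMs being at or under the detection limit (log2 FC 2.23 ± 0.49, FDR-adjusted p = 0.000757). Its regulatory subunit ABCC8, the sulfonylurea receptor, was at 0 to 0.399 CPM (median 0.132) in the NAMs, 0.143 to 9.43 (median 1.6004) in PPGL group 1 and 0.210 to 13.1 (median 4.62) in PPGL group 2, and 14 PPGLs exceeded every NAM (log2 FC 4.56 ± 0.78, FDR-adjusted p = 5.77e-05). KCNJ5, a G protein-opened channel that limits aldosterone production in the cortex, was at 2.80 to 45.4 CPM (median 24.7) in the NAMs, 0 to 46.3 (median 0.119) in PPGL group 1 and 0 to 34.1 (median 1.54) in PPGL group 2. In 13 PPGLs it was below every NAM, while PPGL group 1 replicate 2 (46.3 CPM) was above all of them, and it was not called (log2 FC -2.09 ± 0.88, FDR-adjusted p = 0.0619). Without that tumor KCNJ5 was called lower with a log2 FC of -2.85 (adjusted p 0.00772), and without PPGL group 2 replicate 2 with -2.58 (0.0202). The Mann-Whitney U-test called it lower with all libraries. The other 5 tested members, KCNJ2, KCNJ3, KCNJ8, KCNJ12 and KCNJ14, were not called in the edgeR fit. KCNJ14 was called higher by the DESeq2 Wald test, with library size scaling, with all 3 groups in the fit and without NAM replicate 10 or PPGL group 2 replicate 4. Of the 8 not tested, KCNJ6 reached the highest value, 13.6 CPM in PPGL group 2 replicate 4. The rest were KCNJ1, KCNJ4, KCNJ9, KCNJ10, KCNJ13, KCNJ15 and KCNJ16.

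In 4 of the 11 members called lower, KCNN2, KCNN1, KCNQ1 and KCNK2, set apart after their values were seen, the tumors that overlapped with the NAMs were those with the most cortical marker RNA. PPGL group 2 replicates 10, 2 and 1 had the 3 highest summed levels of the cortical markers among the 19 PPGLs (34973, 12978 and 10424 CPM), and also the 3 highest levels of each of these genes among them. KCNN1 in these tumors was 63.8, 42.3 and 21.2 CPM, and KCNN2 was 68.1, 57.1 and 30.7 CPM. Of the other 7 members called lower, KCNG3 was near this pattern, with PPGL group 2 replicates 2, 9, 10 and 1 its 4 highest tumors (1.89, 1.22, 1.14 and 1.01 CPM, within the NAM range), and the rest did not follow it. KCNA5 in PPGL group 2 replicates 10, 2 and 1 was 31.6, 8.12 and 3.84 CPM, and highest in replicate 3 (100.3 CPM). KCNC4 overlapped with the NAMs in replicates 9, 1 and 5 of group 2 (61.2, 55.4 and 46.6 CPM), and KCNK3 was highest in replicate 8 (65.9 CPM). The mean log2 level of the cortical markers, used as a score, was 10.30 ± 0.68 (SD) in the NAMs, 2.01 ± 1.17 in PPGL group 1 and 6.95 ± 1.87 in PPGL group 2, so that score and tissue are largely confounded. With the score in the model, the lower calls of KCNN2 (log2 FC -1.71), KCNS3 (-3.68) and KCNIP3 (-0.93) were kept. Those of KCNQ1 (-0.59), KCNN1 (-0.81), KCNA5 (-1.49), KCNA1 (-1.53), KCNC4 (-0.29) and KCNK3 (-0.70) were lost, and KCNK2 (0.83) and KCNG3 (0.46) turned positive without a call. Lower calls were gained for KCNH1 (-3.64), KCNH5 (-5.00), KCNAB2 (-1.48, from a positive value without the score) and KCNAB1.

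With the cortical score in the model, 7.2% and 5.7% of all genes tested were called higher and lower, beside 22.3% and 15.2% without it. Of the 19 higher calls, 10 were kept: KCNC2 (4.36), KCNQ5 (4.31), KCNMB2 (3.48), KCNK12 (3.09), KCNJ11 (2.56), KCNE3 (2.49), KCNH2 (1.99), KCNT2 (1.96), KCNMA1 (1.47) and KCNT1 (1.16, all log2 FCs). Among the calls lost, the log2 FC stayed near that without the score for KCNN3 (0.98, 0.93 without the score), KCNK6 (1.30, 1.41), KCNK7 (0.72, 0.95) and KCNMB1 (1.88, 2.22). It fell further for KCNH6 (1.24, 1.70), KCNK1 (1.03, 2.13), KCNH8 (0.51, 1.88) and KCNH7 (0.17, 1.17). KCNQ5, KCNE3, KCNMA1, KCNMB2 and KCNH2 were thus among the 10 members called higher in PPGLs in the fits with and without the score. For KCNMB2, however, the median of PPGL group 1 (20.4 CPM) was below that of the NAMs (23.3 CPM).

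**Figure D3:**
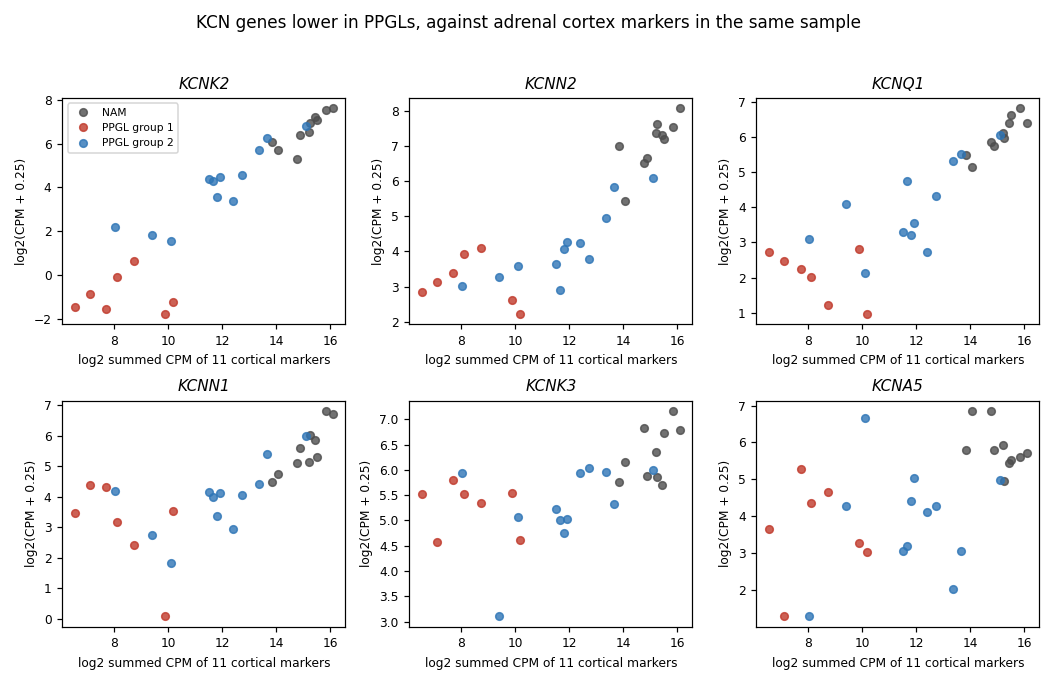
Level of 6 potassium channel genes in each sample (log2 of TMM-scaled CPM plus 0.25, vertical axis) against the summed CPM of the 11 cortical markers (log2, horizontal axis), with a point per sample colored as NAM, PPGL group 1 or PPGL group 2. In KCNK2, KCNN2, KCNQ1 and KCNN1, the 3 tumors of group 2 with the highest cortical sums (10424 to 34973 CPM) lie nearest to the NAMs.

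Within the 19 PPGLs, 61 members were tested between group 1 and group 2, and 5 were called lower in group 1 at an FDR-adjusted p below 0.1, 8.2% beside 2.95% of all 14666 genes tested. Another 5 were called higher, 8.2% beside 3.97%, and the median log2 FC was -0.01 over the members and 0.04 over all genes tested. Of these 10, KCNK2 and KCNH5 lay past a log2 FC of 3 in either direction. Since the groups were drawn from the expression of these samples, the p-values describe how far a gene follows the division. KCNK2 was the only tested member without overlap: all 7 tumors of group 1, at 0.0471 to 1.34 (median 0.175) CPM, lay below all 12 of group 2, at 2.70 to 109.9 (median 20.3) CPM, which 0.15% of all genes tested did. Its log2 FC was -6.23 ± 0.96 (adjusted p 0.00503), and -6.91 without PPGL group 1 replicate 6, but -1.85 (adjusted p 0.194) and not called with the cortical score in the model. KCNMB2 (log2 FC -2.51 ± 0.73, FDR-adjusted p = 0.0614) was lower in 4 tumors of group 1 than in every tumor of group 2, and its log2 FC was -3.16 without PPGL group 1 replicate 7. For the silent subunit KCNF1 (log2 FC -2.40 ± 0.58, FDR-adjusted p = 0.0301) these were 5 of 7, for KCNQ1 (log2 FC -2.33 ± 0.54, FDR-adjusted p = 0.0246) 3 and for KCNC4 (log2 FC -1.41 ± 0.40, FDR-adjusted p = 0.0585) 4. KCNC4 was not called without PPGL group 1 replicate 7 (log2 FC -1.26, adjusted p 0.127) or by the Mann-Whitney U-test.

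On the higher side of group 1, KCNAB2 was above every tumor of group 2 in 4 of 7 (log2 FC 1.97 ± 0.44, FDR-adjusted p = 0.0233), and its call was kept in every fit that left out 1 library. KCNH1 was above them in 4 of 7 (log2 FC 2.51 ± 0.59, FDR-adjusted p = 0.0269), but without PPGL group 1 replicate 7 its log2 FC was 1.597 and the call was lost. KCNH8 was above them in 4 of 7 (log2 FC 1.64 ± 0.50, FDR-adjusted p = 0.0716), and its call was lost without PPGL group 1 replicate 7 (log2 FC 1.13), PPGL group 1 replicate 2 (1.57), PPGL group 2 replicate 8 (1.56) or PPGL group 2 replicate 12 (1.58). KCNH5 was above them in 2 of 7 (log2 FC 3.87 ± 1.18, FDR-adjusted p = 0.0751). Leaving out PPGL group 1 replicate 2, which held 65.0 CPM, brought its log2 FC to 0.96, and the call was lost as well without PPGL group 1 replicate 7 (4.03) or PPGL group 2 replicate 6 (3.78), 7 (3.80), 8 (3.75) or 12 (3.76), and with the DESeq2 Wald test. KCND1 (log2 FC 1.52 ± 0.50, FDR-adjusted p = 0.0938) lost its call in 16 of 19 such fits, with a log2 FC of 1.40 and the highest adjusted p, 0.154, without PPGL group 1 replicate 4, and kept it only without PPGL group 1 replicate 6, PPGL group 2 replicate 4 or PPGL group 2 replicate 8. It also lost it without the low-count filter. The count of members higher in group 1 was therefore 1 without PPGL group 1 replicate 7 (1.7% of all genes tested). It was 2 without PPGL group 1 replicate 2 (3.4%) or PPGL group 2 replicate 12 (3.1%), and 3 without PPGL group 2 replicate 6 (3.3%) or 8 (3.1%). With all libraries 3.97% of all genes tested were higher. By the Mann-Whitney U-test, KCNH1, KCNH5 and KCNH8 were not called.

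Marker lists differed between the groups as well. Of the pericyte and smooth muscle markers, 2 of 8 tested were called lower in group 1, and of the erythroid markers 1 of 4. No chromaffin, Schwann and sustentacular, endothelial, fibroblast or leukocyte marker was called between the groups in the edgeR fit. Of the 11 cortical markers, 10 were called lower in group 1, and with the cortical score in the edgeR model, 0 members were called in either direction between the groups, with 1 higher and 5 lower at an unadjusted p below 0.05. No gene of the whole table was called in that fit. The log2 FCs of the 10 members with and, after the comma, without the score differed little for KCNMB2 (-2.41, -2.51) and KCNH8 (1.59, 1.64) and more for KCNK2 (-1.85, -6.23), KCNQ1 (-0.19, -2.33), KCNF1 (-1.65, -2.40), KCNC4 (-1.05, -1.41), KCNAB2 (0.60, 1.97), KCND1 (0.81, 1.52), KCNH1 (2.04, 2.51) and KCNH5 (6.02, 3.87), the last of which grew. The DESeq2 Wald test without the score called 4 members higher and 8 lower, with KCNC2, KCNJ5 and KCNN2 gained. Over all genes tested, it called 6.2% higher and 6.0% lower, beside 3.97% and 2.95% in the main fit. Of the 7 proliferation markers found of 8 (CCNB1 was not found by name, TOP2A was the most abundant, none at 0), 5 were called higher in group 1 and 6 higher in PPGLs than in NAMs, and their sum was 23.8 to 1242 (median 136) CPM in group 1, 33.6 to 159 (median 67.5) in group 2 and 16.7 to 73.9 (median 33.0) in the NAMs. The part of cortical tissue and of proliferating cells in the group results was not tested.

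**Figure D4:**
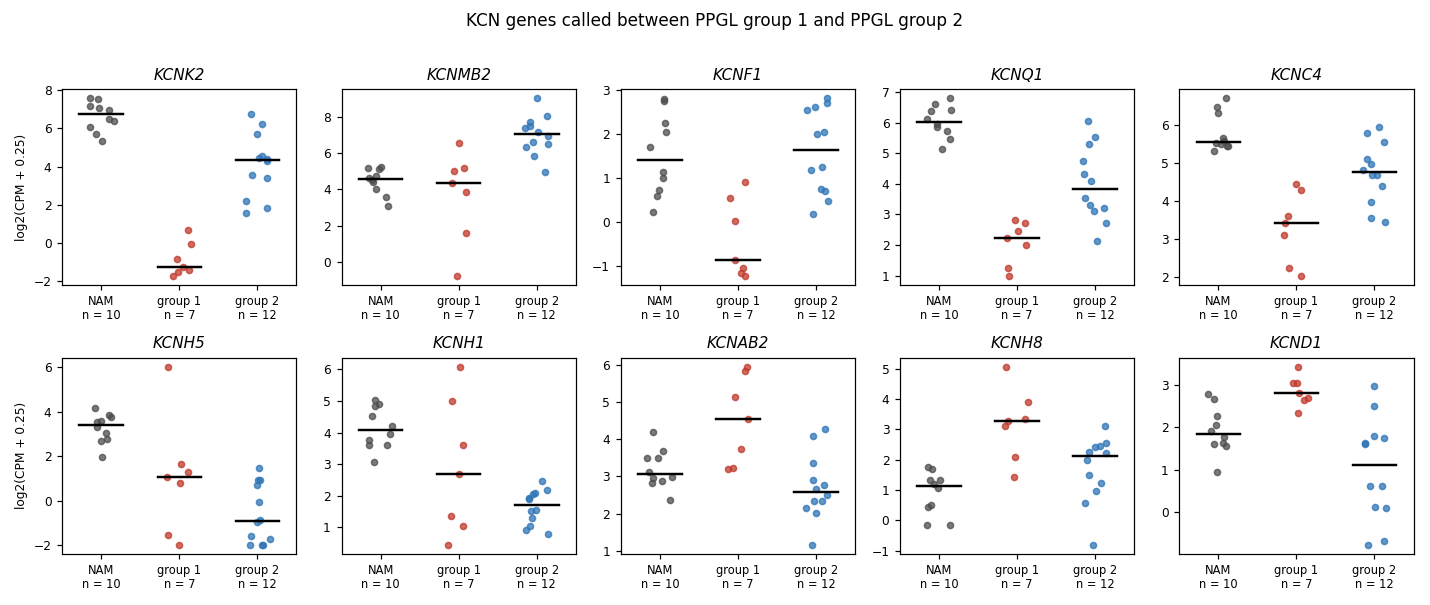
Expression in each PPGL and NAM of the 10 potassium channel genes called between PPGL group 1 (7 tumors) and PPGL group 2 (12 tumors), as log2 of TMM-scaled CPM plus 0.25 on the vertical axis, with a point per sample and a bar at each group's median. KCNK2 is the gene in which the tumor groups do not overlap, with at most 1.34 CPM in group 1 and at least 2.70 CPM in group 2.

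Genes outside the KCN names build or oppose potassium currents too: regulatory subunits, HCN channels (which pass sodium and potassium), the sodium pump that makes the potassium gradient, and potassium-chloride cotransporters. Of 32 such partner genes listed, 30 were found by name (FXYD7 was among those that were not) and 22 were tested, of which 7 were called higher in PPGLs, 31.8% beside 22.3% of all genes tested, and 4 lower, 18.2% beside 15.2%, with a median log2 FC of 0.14. The Mann-Whitney U-test called 4 higher and 6 lower, and with the cortical score in the model 2 were higher and 4 lower. Of all genes tested, that test called 19.7% higher and 20.2% lower, and the fit with the score 7.2% and 5.7%. SLC12A4, a potassium-chloride cotransporter, was at 149 to 279 CPM (median 206) in the NAMs, 14.0 to 100.1 (median 63.1) in PPGL group 1 and 39.5 to 115 (median 83.2) in PPGL group 2. All 19 PPGLs lay below every NAM (log2 FC -1.53 ± 0.20, FDR-adjusted p = 2.50e-06), which 0.481% of all genes tested did. The pump subunits diverged: ATP1B1 (log2 FC 1.51 ± 0.35, FDR-adjusted p = 0.00114) was higher and ATP1B3 (log2 FC -1.13 ± 0.19, FDR-adjusted p = 5.44e-05) lower, as was the pump regulator FXYD1 (log2 FC -1.73 ± 0.46, FDR-adjusted p = 0.00385). The pump subunit ATP1A4 (log2 FC -1.9998 ± 0.74, FDR-adjusted p = 0.0327) had a log2 FC of -2.62 without PPGL group 2 replicate 2, lost its call without NAM replicate 1 (-1.88) or 2 (-1.84), and turned to 0.36 with the cortical score in the model. ABCC9, the regulatory subunit that pairs with KCNJ8 in vessels, was higher (log2 FC 2.18 ± 0.62, FDR-adjusted p = 0.00662), beside ABCC8 above.

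HCN3 (log2 FC 0.55 ± 0.19, FDR-adjusted p = 0.0223) lost its call without NAM replicate 8 (log2 FC 0.47). HCN2 (log2 FC 0.61 ± 0.24, FDR-adjusted p = 0.0424) lost it in 15 of 29 fits that left out 1 library: NAM replicate 1, 2, 5, 7, 8 or 9, PPGL group 1 replicate 3, 5 or 6, or PPGL group 2 replicate 1, 2, 3, 4, 7 or 12 (highest adjusted p 0.0786, log2 FC 0.57, without NAM replicate 2). With the cortical score in the model, FXYD1 (log2 FC -0.28), ABCC9 (2.03), HCN2 (0.70) and HCN3 (0.25) lost their calls, while SLC12A4, ATP1B1, ATP1B3 and ABCC8 kept theirs. ABCC9 and HCN2 were not called by the Mann-Whitney U-test, and HCN2 was not without the low-count filter or with all 3 groups in the fit. Between the tumor groups, 2 partner genes were higher and 2 lower in group 1. Each is 9.1% of the 22 tested, beside 3.97% higher and 2.95% lower of all genes tested. DPP6, a KCND partner that the study lists among its genes of these same groups, was at 23.0 to 165 CPM (median 52.3) in the NAMs, 4.09 to 598 (median 262) in PPGL group 1 and 0.194 to 36.8 (median 3.53) in PPGL group 2 (log2 FC 5.64 ± 0.95, FDR-adjusted p = 0.00541, and 6.52 without PPGL group 2 replicate 9), so its value is no independent evidence. ATP1B3 was higher (log2 FC 0.75 ± 0.23, FDR-adjusted p = 0.0739), but not called without PPGL group 1 replicate 2 (log2 FC 0.43), PPGL group 1 replicate 3 (0.73) or PPGL group 2 replicate 10 (0.72). AMIGO1, a KCNB partner, was lower (log2 FC -1.34 ± 0.34, FDR-adjusted p = 0.0356), and so was ATP1A4 (log2 FC -3.93 ± 1.02, FDR-adjusted p = 0.0405, and -3.31 without PPGL group 2 replicate 2). ATP1B3 and ATP1A4 were not called between the groups by the Mann-Whitney U-test.

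Markers of the other cell types in these tissues were read from the same fits. The 6 fibroblast markers (COL3A1 the most abundant) summed to 266 to 658 (median 411) CPM in the NAMs, 154 to 2382 (median 511) in PPGL group 1 and 407 to 25288 (median 955) in PPGL group 2, with 4 higher and 0 lower of 6 tested in PPGLs. The 8 endothelial markers (PECAM1) summed to 376 to 1104 (median 631) CPM in the NAMs, 132 to 1042 (median 403) in PPGL group 1 and 235 to 851 (median 396) in PPGL group 2, with 0 higher and 4 lower of 8 tested. The 7 Schwann and sustentacular markers found of 8 (FABP7 was not found by name, CDH19 was the most abundant) summed to 59.7 to 175 (median 107) CPM in the NAMs, 2.39 to 245 (median 32.3) in PPGL group 1 and 11.7 to 129.8 (median 30.5) in PPGL group 2, with 0 higher and 0 lower of 6 tested. The 9 leukocyte markers found of 10 (not CD14, with CSF1R the most abundant) summed to 90.6 to 242 (median 188) CPM in the NAMs, 67.9 to 218 (median 148) in PPGL group 1 and 50.9 to 801 (median 112) in PPGL group 2, with 2 higher and 1 lower of 7 tested. The 6 erythroid markers (ALAS2) summed to 0.0779 to 0.839 (median 0.312) CPM in the NAMs, 0.201 to 28.6 (median 2.45) in PPGL group 1 and 0.546 to 65.8 (median 4.09) in PPGL group 2, with 3 higher and 0 lower of 3 tested. No marker in these lists was at 0 in all samples.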

How the data were processed

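The authors deposited raw counts: single-end reads of 50 bases were aligned to CanFam3.1 with STAR 2.4.2a and each count is the number of reads on the exons of an Ensembl gene, without normalization. From these counts, edgeR's filterByExpr (minimum count 10, minimum total 15), TMM scaling and the quasi-likelihood F test gave log2 FC (prior count 0.125), SE and p, adjusted by Benjamini-Hochberg over all genes tested. PPGLs were compared with NAMs in 29 samples and the groups in the 19 PPGLs, with the study's adjusted p thresholds, 0.05 and 0.1. A call here needs no minimum log2 FC, unlike the study's cutoff of 3 in either direction, which is given apart. RPKM used the exon length in the table.

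Named members were those called with the 12 largest log2 FCs in each direction, those called between the groups (at most 10 in each direction), the 3 with the highest mean RPKM in each group, and 16 known in chromaffin or adrenocortical cells, among them KCNMA1, KCNMB2, KCNMB4, KCNN2, KCNN3, KCNQ3, KCNQ5, KCNH2, KCNK3, KCNK9, KCNK5, KCNJ5, KCNJ11 and KCNE3. Some genes of these and of the partner list are counted but not reported here. Others are named where said. The members, the partner genes and the lists of 9 cell types and states were chosen with earlier results of these data known. DESeq2 1.42.0, limma 3.58.1 and edgeR 4.0.16 ran under R 4.3.3, and figures were drawn by matplotlib 3.10.9 under Python 3.11.15. The authors' own comparison columns were not used here.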

Additional observations from a re-analysis of the deposited data

Results flagged for a closer look

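In 3 of the 70 groups of libraries checked, for the members named, 1 library lay far from the rest of its group. KCNJ5 was 46.3 CPM in PPGL group 1 replicate 2, and the next highest tumor of the group had 0.666. KCNIP4 was 8.25 CPM in NAM replicate 8, with the next lowest NAM at 18.1. KCNG3 was 0.0438 CPM in PPGL group 1 replicate 1 and 0 in the other tumors of the group, a difference under the detection limit. By the critical value used, chance marks about 1 in 20 such groups. NAMs and PPGL group 1 were checked, and PPGL group 2, with 12 libraries, is too large for the rule and was not.

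For 10 members the tumor groups differed in the fit between PPGL group 1 and group 2. The log2 FC was -6.23 for KCNK2, -2.51 for KCNMB2, -2.40 for KCNF1, -2.33 for KCNQ1, -1.41 for KCNC4 and, on the higher side, 3.87 for KCNH5, 2.51 for KCNH1, 1.97 for KCNAB2, 1.64 for KCNH8, 1.52 for KCND1. The groups were drawn from these samples, and a cause was not tested.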

How the results depend on the processing

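Of the log2 FCs of named genes between PPGLs and NAMs over the alternatives, 498 kept direction and side of the threshold. Of the rest, 17 passed it, 40 lost it and 7 changed sign, and between the groups the values were 377, 6, 37 and 12. Fits that left out 1 library entered this tally only at their lowest and highest log2 FC per gene. Calls lost or gained in the other fits of that kind are therefore not in it. Leaving out 1 library, 18 to 20 members were higher and 10 to 15 lower in PPGLs. Of all genes tested, 19.8% to 23.0% were higher and 13.5% to 16.4% lower in PPGLs in these fits. Between 2 and 4 members lay past a log2 FC of 3 in either direction (3 with all libraries). In group 1, 1 to 6 were higher and 5 to 6 lower. All genes tested gave 1.7% to 4.9% higher and 1.8% to 3.3% lower in group 1 in these fits. By the Mann-Whitney U-test, 16 were higher and 18 lower in PPGLs (19.7% and 20.2% of all genes tested, 22.3% and 15.2% in the main fit). That test called 2 higher and 4 lower in group 1 (1.1% and 1.5% of all genes tested, 3.97% and 2.95% in the main fit). By the DESeq2 Wald test, and with all 3 groups in the fit, 8 were lower in group 1. Over all genes tested, 6.0% and 7.1% were lower in these fits, beside 2.95% in the main fit. Without the low-count filter, 6 lay past a log2 FC of 3, with KCNK16, KCNS1 and KCNU1 added. Higher calls in PPGLs were gained there for KCNJ10, KCNK16, KCNS1 and KCNU1, and that of KCNK7 was lost. Between the groups, KCNK4 and KCNS1 were gained as higher in group 1 and KCNG3 and KCNV1 as lower, and KCND1 was lost. KCNG3 was also called lower in group 1 in every fit that left out a tumor of group 1. In the main fit between the groups it had not passed the low-count filter and was not tested. In the other cases the cause was not tested.

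With the cortical score as covariate, 10 members were higher and 7 lower in PPGLs (7.2% and 5.7% of all genes tested), 8 lay past a log2 FC of 3, and 0 were higher and 0 lower in group 1 (edgeR, 1 and 5 at an unadjusted p below 0.05, while the DESeq2 Wald test without the score gave 4 and 8), though some log2 FCs stayed about as large (KCNMB2 -2.41 against -2.51, KCNH8 1.59 against 1.64). Log2 FCs that changed sign in PPGLs against NAMs were KCNK2 0.83, KCNG3 0.46, KCNF1 1.39, ATP1A4 0.36, KCNAB2 -1.48, KCND1 -1.51 and KCNK5 -0.76. Between the groups they were ATP1A4 0.67, KCNK3 0.42, KCNK5 -0.25, KCNN1 0.64, KCNN2 1.29, KCNN3 0.18 and KCNS3 -0.29. Score and groups are confounded, and the cause was not tested.

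With the sample number as replicate block, 12 members were higher and 16 lower in PPGLs (19 and 11 in the main fit, while all genes tested gave 15.4% and 16.1%). In that fit 5 lay past a log2 FC of 3 (KCNQ5, at 2.95, did not). In group 1, 0 members were higher (4 at an unadjusted p below 0.05, edgeR) and 2 lower. Over all genes tested, 0.1% were higher and 0.3% lower in group 1 with the block, beside 3.97% and 2.95% in the main fit. Between the groups KCNJ5 (-2.43) changed sign. The numbers count different animals: same-numbered samples correlated over 0.1 in 0 of 7, 2 of 10 and 0 of 7 pairs (NAM with group 1, NAM with group 2, group 1 with group 2). By the DESeq2 Wald test, KCNJ5 between the groups was -2.36, a changed sign with a call as lower (adjusted p 0.0857). Leaving out 1 library, sign changed within the range of -4.31 to 1.76 for KCNJ5, -0.83 to 0.0764 for KCNA5 and -0.22 to 0.0410 for KCNN3. The cause was not tested.

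Partner genes called higher in PPGLs were 4 by the Mann-Whitney U-test, 3 with the replicate block and 2 with the cortical score, against 7. The share of all genes tested fell too, to 19.7%, 15.4% and 7.2% in these fits, from 22.3% in the main fit.

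The count past a log2 FC of 3 under the alternatives, mean RPKM without each library, and the alternatives for partner genes and for members beyond the 12 largest, were chosen after seeing the data. Depth limits members under about 3 counts, the tissues come from different dogs, and single tumors of group 1 carry several results.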
